A study of Homo sapiens with 12 samples.

Results

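The regions carrying acetylated histone H3 lysine 9 (H3K9ac) in untreated MDA-MB-231 cells were set against the domains of dimethylated lysine 9 (H3K9me2) mapped in the same cells. The members were the untreated H3K9ac and H3K9me2 lists, chosen by condition and mark alone and not by any measured value: 4 of the 12 samples of the series. They comprised 14377 H3K9ac regions that the authors called reproducible from both libraries, the 120630 and 59724 peaks of H3K9ac replicates 1 and 2, and the 12573 and 14457 islands of H3K9me2 replicates 1 and 2. MDA-MB-231 is an established triple-negative breast cancer line, maintained here in serum-containing DMEM, and was crosslinked for chromatin immunoprecipitation and sequencing. The untreated group received no DETA/NO, which sets nitric oxide free in the medium. The treated group, used only for the comparison near the end, was grown to high confluency, deprived of serum overnight and given 500 µM DETA/NO for 24 h. Whether the untreated cells were also deprived of serum is not stated separately in the labels. The series describes the 2 replicates of each group as biological replicates.

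Lysine 9 of histone H3 can carry an acetyl group or methyl groups, but not both at once on the same histone tail. Acetylation, added by enzymes such as GCN5 and PCAF, is a hallmark of active promoters and enhancers and usually forms narrow peaks. Dimethylation, added mainly by the enzymes G9a and GLP, covers long silent stretches that are called as islands, and the marks are therefore usually described as occupying different parts of the genome. The questions addressed here are how far each acetylated region lay from an island edge, how dense acetylation was inside, at the edge of and far from islands, and how both depended on peak score, peak width and support by the replicate library.

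The lists differed in ways that touch every value below. H3K9ac replicate 1 held more peaks than replicate 2 at a similar median width (240 and 234 bp), and 52.4% and 34.7% of peaks were within 10 bp of the narrowest width in their list (238 and 175 bp). Reproducible regions were much wider, with a median of 1115 bp. H3K9me2 islands of replicates 1 and 2 covered 8.0% and 8.6% of the 2946 Mb between the first and last interval on 23 chromosomes (1 to 22 and X), and 4.9% was covered in both lists. Chromosome 13 had no island, so its 158 reproducible regions have no distance. Its 96.0 Mb and the peaks on it were still counted in the zone beyond 1000 kb. They were also counted in the pooled densities outside islands and beyond 100 kb. Read depth is unknown, since the lists hold no counts, and Wilson 95% intervals given below cover counting error only. The reproducible set is a single list, and an exact test over 2 library pairs could not give a p under 0.5, so no test was run within untreated cells. Values are given for each list, or as a mean ± SD over the 2 lists, and differences are described against that spread.

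Reproducible H3K9ac regions were scarce in H3K9me2 islands. Of 14351 regions on the 23 chromosomes, 133 overlapped islands of replicate 1 by at least 1 bp, 0.927% (Wilson interval 0.783 to 1.10). Islands of replicate 2 held 64, 0.446% (0.349 to 0.569). The mean was 0.686% ± 0.340 (SD, n = 2), while islands held 8.63% ± 0.479 of the positions on the chromosomes that carry them, so both shares lay far under that level although they differed from each other. Nearly all of these overlaps were complete: 125 of the 133 and 60 of the 64 regions lay wholly inside islands rather than across an edge. Both island lists agreed on 47 of the regions, 86 met islands of replicate 1 only and 17 met islands of replicate 2 only.

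The acetylated regions also kept a distance from the islands. The median reproducible region lay 866 kb from the nearest island edge of replicate 1 and 828 kb from that of replicate 2, a mean of 847 kb ± 27.3 (SD, n = 2), with a lower quartile of 282 kb ± 19.3 and an upper quartile of 2394 kb ± 137. Positions taken every 1 kb along the same chromosomes had a median distance of 465 kb ± 40.2. Within 20 kb of an island or inside it lay 3.23% ± 0.105 of regions but 18.9% ± 1.27 of positions. Within 100 kb the shares were 10.8% ± 1.11 and 31.5% ± 1.35, and within 1000 kb they were 54.5% ± 1.31 and 61.0% ± 0.870. At each of these limits regions fell short of positions by more than the spread between the island lists, and by a smaller factor the wider the limit.

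Density by zone gave the shape of this depletion. In the interior of islands, over 5 kb from their edges, reproducible regions numbered 0.440 ± 0.215 per Mb (SD, n = 2), and in the outermost 5 kb of islands 0.352 ± 0.202 per Mb. Just outside, from 0 to 5 kb, the density was 1.12 ± 0.114 per Mb, and from 5 to 20 kb it was 1.26 ± 0.0970 per Mb. So the edge itself was a step, higher on the outside in both lists, whereas the interior and the inner rim did not differ beyond their spread. From 20 to 100 kb the density was 3.0 ± 0.385 per Mb and from 100 to 1000 kb 7.37 ± 0.157 per Mb, the highest of the 7 zones. Beyond 1000 kb, a zone that takes in chromosome 13 at 1.65 regions per Mb, it was 5.48 ± 0.0431 per Mb.

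The rise in density outside the edge was gradual and long compared with the islands, whose median width was 12 and 11 kb. Bins near an edge draw on gaps of every length and far bins only on long gaps. Distance and gap length therefore went together in this profile, and the part of each was not tested. For islands of replicate 1, the density stayed under the mean outside islands (5.25 per Mb) in every bin of 5 kb up to 100 kb, and was 5.42 per Mb from 100 to 150 kb. For replicate 2 (mean 5.31 per Mb) it touched the mean from 90 to 95 kb, was 3.93 per Mb in the next bin, and stood at 5.31 per Mb from 100 to 150 kb. It went on to 8.67 and 10.1 per Mb from 800 to 1000 kb. The 12 chromosomes on which islands covered at least 5% in both lists (1, 3, 4, 5, 6, 7, 8, 10, 11, 14, 18 and 20) gave the same order of zones outside the edge when taken alone: 1.13 ± 0.155, 1.24 ± 0.172, 3.23 ± 0.311 and 7.89 ± 0.142 per Mb up to 1000 kb, and 6.0 ± 0.0318 per Mb beyond. The profile of density around island edges shows the step at the edge and the slow rise for reproducible regions, next to the peaks of 1 library only. Over the distances drawn, those of replicate 1 ranged from 32.5 per Mb at 0 to 5 kb outside to 43.9 per Mb at 15 to 20 kb inside. Those of replicate 2 ranged from 11.9 to 16.3 per Mb over the same distances. Farther out, those of replicate 1 stood at 44.2 per Mb from 400 to 600 kb and 28.1 per Mb beyond 1000 kb.

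**Figure D1:**
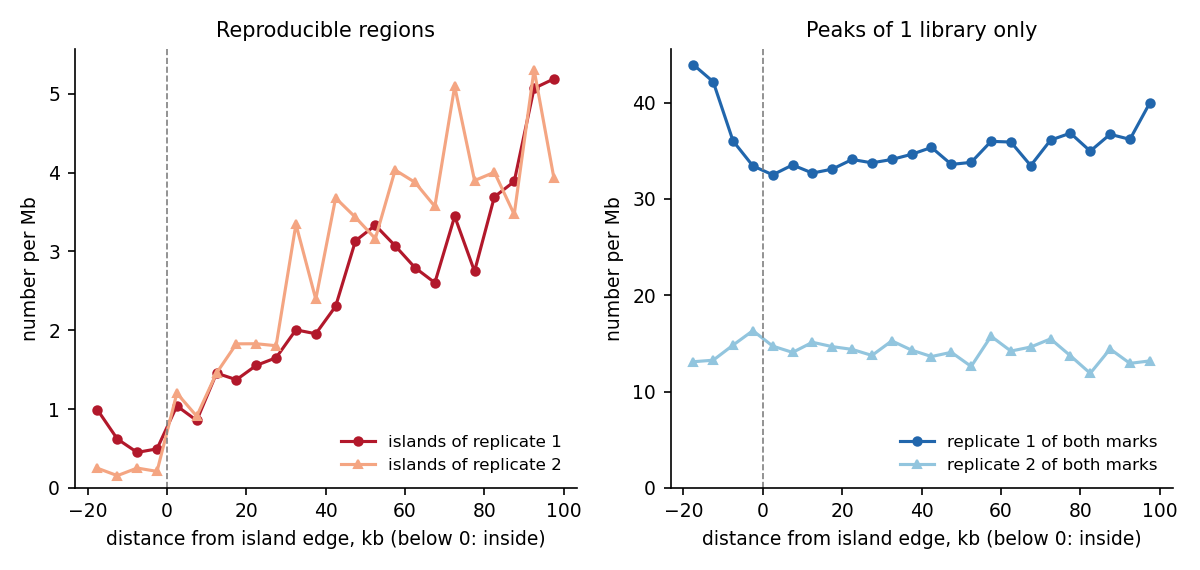
Number per Mb of reproducible H3K9ac regions (left, red) and of H3K9ac peaks found in 1 library only (right, blue) in bins of 5 kb by distance from the nearest H3K9me2 island edge in kb, with values below 0 inside islands and the dashed line at the edge. Each line is 1 island list or 1 library pair and the vertical axes differ; reproducible regions stay under 1 per Mb inside and climb over about 100 kb outside, while peaks of 1 library are present at similar density on both sides of the edge, with a shallow dip around it in replicate 1.

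This depletion was seen in H3K9ac that both libraries shared. Library peaks were split by support: those overlapping the authors' reproducible set (15578 peaks in replicate 1 and 19673 in replicate 2), those meeting a peak of the other library but not in the set (4689 and 4944), and those of 1 library only (100254, 83.2% of replicate 1, and 35061, 58.8% of replicate 2). Of the peaks of 1 library only, 8.69% ± 0.0451 in replicate 1 and 10.7% ± 0.536 in replicate 2 overlapped islands (SD over the 2 island lists). The corresponding shares were 0.768% ± 0.121 and 0.728% ± 0.114 for peaks met in both libraries outside the set, and 0.629% ± 0.309 and 0.506% ± 0.255 for peaks in the set. Peaks met in both libraries thus stood with the reproducible peaks even where the authors' set left them out. Among peaks of 1 library, those of replicate 1 stood near the 8.63% of positions that islands held, and those of replicate 2 stood above it.

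As densities, the same split read as a ratio of peaks per Mb inside to outside islands, taken between H3K9ac and H3K9me2 libraries of the same replicate number. Over all peaks it was 0.909 in replicate 1 and 0.742 in replicate 2, a mean of 0.825 ± 0.118 (SD, n = 2). Peaks of 1 library only had ratios of 1.09 and 1.29 (1.19 ± 0.145), against 0.0942 and 0.0668 for peaks met in both libraries outside the set. Reproducible regions had 0.104 and 0.0467 against the 2 island lists (0.0752 ± 0.0404). The ratio over all peaks therefore averaged a large class at 1.09 and 1.29 and smaller classes near or under 0.1. At the edge the pattern was similar: the density from 0 to 5 kb outside islands over that beyond 100 kb was 0.796 and 0.763 for all peaks (0.779 ± 0.0237), 0.964 and 1.37 for peaks of 1 library, and 0.167 and 0.191 for reproducible regions.

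By zone, peaks of 1 library in replicate 1 numbered 39.9 per Mb deep inside islands, 33.4 in the inner rim, 32.5 from 0 to 5 kb outside, 41.8 from 100 to 1000 kb and 28.1 beyond 1000 kb. In replicate 2 the same zones held 13.6, 16.3, 14.7, 13.9 and 8.49 per Mb. Neither library showed the step at the edge that reproducible regions showed, and both were lowest beyond 1000 kb. Peaks met in both libraries but outside the set numbered 0.160 ± 0.0451 per Mb deep inside islands, 0.33 ± 0.033 just outside, 1.53 ± 0.0860 from 100 to 1000 kb and 2.65 ± 0.133 beyond 1000 kb. They were the only class of the 3 that was densest beyond 1000 kb.

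**Figure D2:**
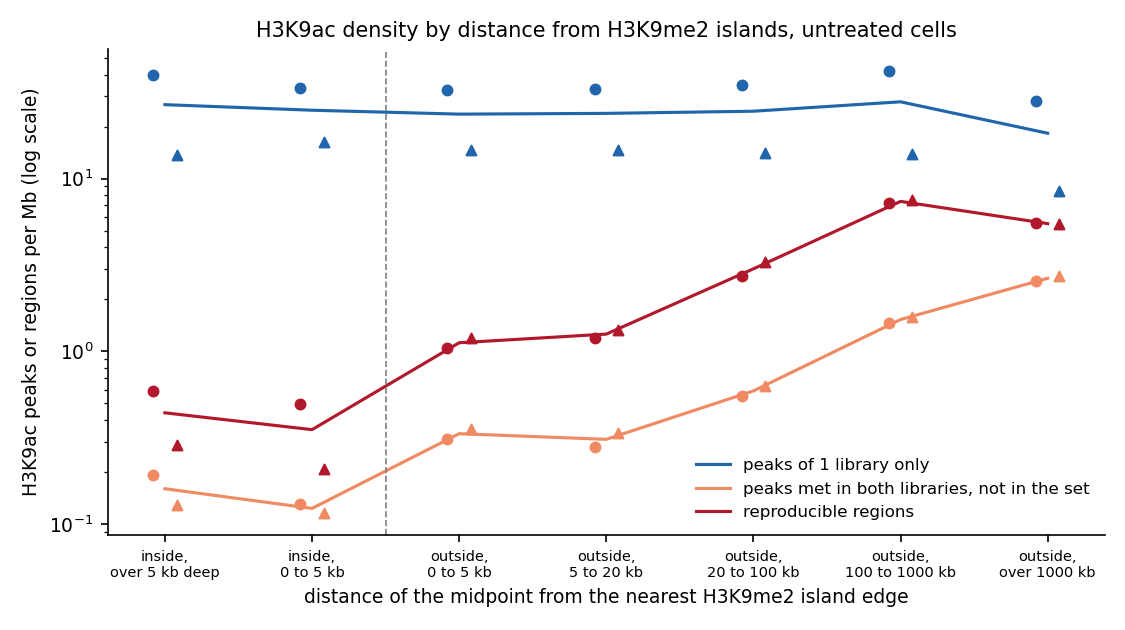
Number per Mb (log scale) of H3K9ac peaks of 1 library only (blue), peaks met in both libraries but not in the authors' set (orange) and reproducible regions (red) in 7 zones of distance from the nearest H3K9me2 island edge, with the edge as a dashed line. Circles are replicate 1, triangles replicate 2 and lines their mean; reproducible regions go from 0.440 per Mb deep inside islands to 7.37 per Mb at 100 to 1000 kb, while peaks of 1 library keep a similar density across the edge.

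The distances followed support in the same way. Peaks of 1 library had a median distance of 385 kb ± 29.5 in replicate 1 and 257 kb ± 23.2 in replicate 2, under the 465 kb of evenly spaced positions. Peaks in the reproducible set had 854 kb ± 27.7 and 867 kb ± 29.6. Peaks met in both libraries outside the set lay farthest, at 2176 kb ± 87.8 and 2253 kb ± 60.6. That last class was spread differently over the chromosomes: it made up 18.3% and 15.8% of supported peaks on the 12 island-rich chromosomes and 29.3% and 25.6% on the other 11. In replicate 1 its share was highest on chromosome 13, which has no island (49.4%), chromosome 22 (48.4%) and X (43.1%). Its distances and its high density beyond 1000 kb moved with that uneven spread, whose part in them was not tested.

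Score and width both went with support, so the overlap was also read within score classes. Peaks of 1 library had median authors' scores of 1.5 and 1.3 and median widths of 238 and 181 bp, and 61.3% and 52.3% of them were within 10 bp of the narrowest width. Reproducible peaks had median scores of 9.65 and 5.28 and widths of 932 and 559 bp. At scores from 2 to 4, 8.03% of 16392 single-library peaks of replicate 1 overlapped islands of replicate 1 (7.63 to 8.46), against 1.01% of 3156 supported peaks, those met in the other library or in the set (0.719 to 1.43). At scores from 4 to 8 the shares were 4.73% of 1734 (3.83 to 5.83) and 0.622% of 4022 (0.421 to 0.916). In replicate 2, against its own islands, they were 10.1% of 7024 (9.37 to 10.8) and 0.391% of 6913 (0.269 to 0.568) at scores from 2 to 4, and 6.30% of 238 (3.86 to 10.1) and 0.0163% of 6131 (0.00288 to 0.0923) at scores from 4 to 8. Peaks of equal score class thus differed by support beyond counting error in both libraries. In replicate 1 the share was lower at higher scores in both support classes, and at scores of 8 or more only 2 of 125 single-library peaks overlapped islands, too few to set apart from the 29 of 9506 supported ones with any precision (1.60%, 0.440 to 5.65, and 0.305%, 0.213 to 0.438).

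**Figure D3:**
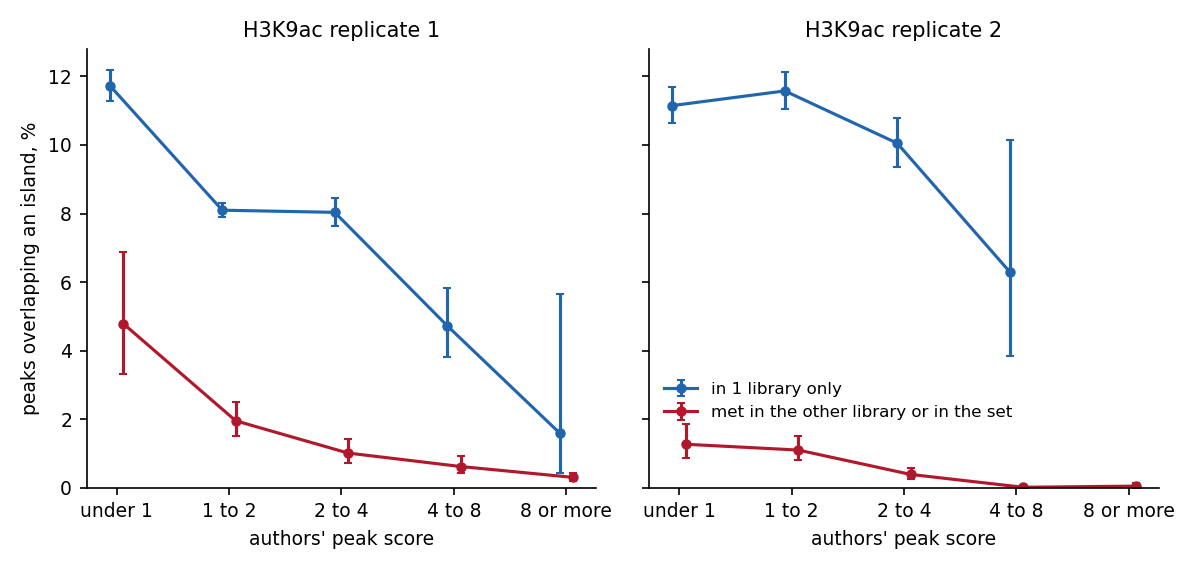
Share of H3K9ac library peaks overlapping an H3K9me2 island of the same replicate number (%), by class of the authors' peak score, for peaks in 1 library only (blue) and peaks met in the other library or in the reproducible set (red), replicate 1 left and replicate 2 right. Bars are Wilson 95% intervals (counting error only); the class of 8 or more holds 6 single-library peaks in replicate 2 and is not drawn for them, and the blue shares lie above the red at every score class under 8.

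The same held within width classes. Among peaks from 250 to 500 bp, 8.99% of 34075 single-library peaks of replicate 1 overlapped islands (8.69 to 9.29) and 1.85% of 4480 supported peaks did (1.5 to 2.29). In replicate 2 these shares were 10.5% of 7637 (9.86 to 11.2) and 0.363% of 7715 (0.251 to 0.524). From 500 to 1000 bp they were 6.99% of 4395 and 0.414% of 6515 in replicate 1, and 5.62% of 178 and 0.0261% of 7651 in replicate 2. Wider peaks were almost all supported: from 1000 to 2000 bp in replicate 1, 1 of 86 single-library peaks overlapped islands (1.16%, 0.206 to 6.30) and 8 of 6053 supported peaks did (0.132%, 0.0670 to 0.261), intervals too wide to set the classes apart firmly.

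Within the reproducible set, width sorted the overlapping regions more sharply than score. The narrowest quintile, from 238 to 614 bp, overlapped islands at 2.83% ± 1.11 (SD, n = 2), the next quintile at 0.331% ± 0.369, and the widest quintile at 0.0698% ± 0.0493. The narrowest quintile held 104 of the 133 overlapping regions for islands of replicate 1 and 59 of the 64 for replicate 2. Its median distance to an island was also the shortest of the 5, 625 kb ± 18.1, where the other quintiles ranged from 879 to 975 kb. By the authors' score, the −log10 of an irreproducible discovery rate, the lowest 2 quintiles overlapped at 1.01% ± 0.197 and 1.57% ± 0.542 and the upper 3 at 0.348% ± 0.443, 0.279% ± 0.296 and 0.226% ± 0.222. The upper quintiles did not differ beyond the spread between lists. The median distance had no steady order by score, at 1083, 740, 919, 810 and 759 kb from the lowest to the highest quintile.

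Crossing both properties at their medians (2.70 for score and 1116 bp for width) showed where the overlaps sat. Of 5153 regions that were both low in score and narrow, 94 and 59 overlapped islands of replicates 1 and 2. Among 2023 low-scoring but wide regions, 1 and 1 did. High-scoring narrow regions gave 28 and 2 of 2027, and high-scoring wide regions 10 and 2 of 5148. Low score went with overlap only in narrow regions, and the high-scoring narrow group was the one in which the 2 island lists disagreed most.

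That disagreement lay in a few islands. Replicate 1 had 6 islands that each held 3 or more reproducible regions, 44 regions in all, and replicate 2 had none. They were chr1:121478001-121486000 with 4 regions, chr5:49430001-49444500 with 4, chr7:61967001-62047500 with 5, chr16:33939001-33988500 with 4, chr16:46385501-46440000 with 21 and chr17:22249501-22262500 with 6 (hg19). All of these positions lie near centromeres, as general background knowledge of the assembly rather than a value read from the files. Islands of replicate 2 covered 0 bp of 4 of them, 20000 bp of the first chromosome 16 island and 32000 bp of the chromosome 7 island. The H3K9ac peaks in them included very high scores in both libraries, up to 364 and 147 on chromosome 7 and 350 and 145 on chromosome 1, against list medians of 1.72 and 1.48. Without these 6 islands 89 regions overlapped islands of replicate 1, 0.620%, the mean over lists was 0.533% ± 0.123, and high-scoring narrow regions overlapped 3 times in place of 28. The 3 upper score quintiles then held 4, 3 and 1 overlapping regions for replicate 1 and 1, 2 and 2 for replicate 2.

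Elsewhere the overlaps were scattered one region to an island. Of 12572 islands of replicate 1 on the 23 chromosomes 92 held a reproducible region (0.732%), 83 of them exactly 1. Of 14456 islands of replicate 2, 61 did (0.422%), 58 of them exactly 1. The 47 regions in islands of both lists fell on 15 chromosomes, with a median width of 364 bp and a median score of 1.80, and 3 of them (6.38%) had a score over 3. Among the 86 regions in islands of replicate 1 only, 23 (26.7%) scored over 3, and among the 14201 regions in no island 41.8% did, with a median width of 1122 bp.

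The reproducible regions deepest inside islands of both lists were mostly narrow, low-scoring and on chromosome 6. Great depth is possible only in wide islands, and the 10 widest common islands were all on chromosome 6. The chromosome is therefore not a trait apart from the choice by depth. The deepest, chr6:50633010-50633322, was 313 bp wide and lay 144 kb from the nearer edge of a 414000 bp common island; its peaks scored 1.06 and 1.00. The next was chr6:24179600-24179967 at 90.3 kb, with scores of 1.25 and 1.00. A further 6 of the 10 deepest were on chromosome 6, at depths from 78.4 kb (chr6:62256726-62257002) to 25.9 kb (chr6:69993184-69993644), each with 1 peak per library and scores from 0.52 to 2.67. Another low-scoring one was chr16:71097386-71097723, at 51.6 kb, with scores of 1.15 and 3.43. None of these 9 met a peak in either treated library. The exception was chr20:29611133-29612576, 1444 bp wide and 27.1 kb deep, whose peaks scored 15.5 and 13.0 and which met 2 and 1 treated peaks. Over all 47 regions in common islands, 7 met a peak of a treated library and 57.4% lay within 10 kb of an island edge. The share of all reproducible regions that met a treated peak is not given here. These counts therefore cannot be read as a trait of regions inside islands.

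Gaps between neighbouring islands gave a second view of the edge. Of 6197 gaps of at most 20 kb between islands of replicate 1, 23 held a reproducible region (0.371%), and of 7386 such gaps in replicate 2, 30 did (0.406%). The share was 1.80% and 2.16% for gaps from 20 to 50 kb, 5.80% and 5.89% from 50 to 100 kb, 37.0% and 40.9% from 100 to 1000 kb, and 95.1% and 95.8% above 1000 kb. Longer gaps have more room, but density also differed with gap length: it was 0.611 and 0.746 per Mb in gaps from 20 to 50 kb, 1.00 and 1.10 from 50 to 100 kb, 3.86 and 4.37 from 100 to 1000 kb, and 6.70 and 6.85 in the longest. Below 20 kb there was no steady order: gaps of 2 to 5 kb held 0.852 and 1.88 per Mb, from 5 and 13 regions, gaps of 5 to 10 kb held 0.401 and 0.318, and gaps of 10 to 20 kb held 0.560 and 0.522. Every class up to 100 kb was thus under the mean density outside islands in both lists. Where gaps were long, regions lay somewhat toward their middle: on a scale from 0 at an island to 1 at the middle of the gap, the median was 0.577 and 0.557 in gaps of 100 to 1000 kb and 0.548 and 0.538 in longer ones, where an even spread gives 0.5. In shorter gaps the lists did not agree. The median was 0.608 and 0.352 in gaps of 20 to 50 kb, and 0.574 and 0.502 in gaps of 50 to 100 kb. Single-library peaks of replicate 1 were found in 63.6% of gaps of 20 to 50 kb between islands of replicate 1, where reproducible regions were found in 1.80%.

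**Figure D4:**
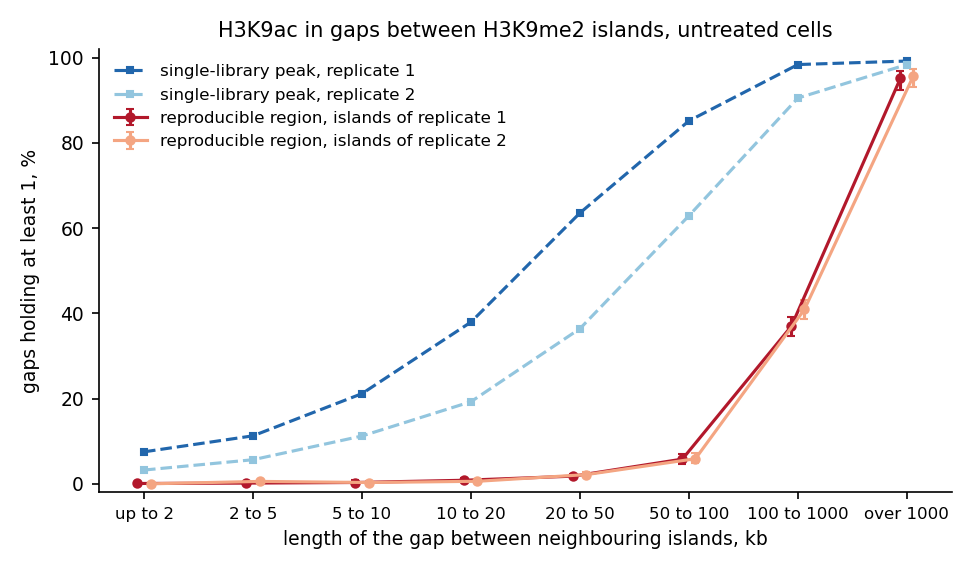
Share of gaps between neighbouring H3K9me2 islands (%) that hold at least 1 reproducible H3K9ac region (red, islands of replicate 1; orange, islands of replicate 2; bars are Wilson 95% intervals) or at least 1 H3K9ac peak of 1 library only (blue dashed, same replicate numbers), by gap length in kb. Reproducible regions are nearly missing from gaps under 50 kb and reach 95.1% and 95.8% of gaps over 1000 kb, while single-library peaks rise steadily with gap length.

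Acetylated regions in short gaps were few but not all low-scoring. Regions lying from end to end within a gap of at most 20 kb numbered 23 for replicate 1 and 33 for replicate 2 (the densities above count midpoints), and 7 lay so in both lists, so all 7 are named. The highest by the score of the reproducible set (3.59) was chr8:86018898-86020210, 1313 bp wide, in a gap of 15500 bp in replicate 1 and 7000 bp in replicate 2, with library scores of 11.8 and 7.10. A pair on chromosome 6, chr6:69344530-69345047 and chr6:69345176-69346212, shared a gap of 3000 bp in both lists, and scored 8.01 and 3.19, and 1.99 and 2.01. On the same chromosome, chr6:70506044-70506956 lay 43 bp inside the left end of a gap of 3000 bp in replicate 1, and in one of 4500 bp in replicate 2, and scored 12.1 and 5.49. The others were chr8:110552052-110553761 (14.3 and 2.78), chr6:26924042-26925374 (9.65 and 5.86) and chr5:165766392-165766745 (1.65 and 0.67). All but the chromosome 5 region met a peak in each treated library. The share of all reproducible regions that did so is not given, so this count cannot be read as a trait of regions in short gaps. The short-gap regions that met treated peaks had higher replicate 1 scores (1.99 or more) than the 9 low-scoring regions deep inside islands (1.76 or less). Their replicate 2 scores overlapped: the lowest in short gaps were 2.01 and 2.78, and the highest deep inside islands were 3.43 and 2.67. The groups thus differed in replicate 1 score as well as in place, and the part of either in meeting treated peaks was not tested.

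The widest islands common to both lists held few reproducible regions, as common islands did in general. All 10 were on chromosome 6 and together spanned 4304.5 kb. They held 2 reproducible regions, 1 each in chr6:51094501-51531500 and chr6:50363501-50777500. The interior of all common islands, over 5 kb from their edges, held 0.383 regions per Mb. The count of 2 therefore does not set the widest islands apart. The widest of all, chr6:39507001-40917500, spanned 1410.5 kb with 0 reproducible regions, yet carried 78 and 28 peaks of 1 library only and 2 and 2 peaks met in both libraries outside the set. Over the 10 islands, single-library peaks numbered 186 and 70, or 43.2 and 16.3 per Mb, against 24.3 and 8.54 per Mb outside islands on the same chromosome. On chromosome 6 as a whole the single-library densities inside islands were 34.4 and 12.6 per Mb.

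On every island-rich chromosome reproducible regions were sparser inside islands than outside, whereas single-library peaks fell on either side of equal density. On the 12 island-rich chromosomes the ratio of reproducible regions inside to outside islands ran from 0.0249 to 0.12 for replicate 1 (median 0.0734) and from 0.0269 to 0.0774 for replicate 2 (median 0.0429), below 1 on 12 of 12 in both. For single-library peaks it ran from 0.754 to 1.87 in replicate 1 (median 0.904, below 1 on 9 of 12) and from 0.857 to 2.05 in replicate 2 (median 1.11, below 1 on 2 of 12). Chromosome 18 had the highest single-library ratio in both libraries, and chromosomes 6 and 8 came next. Taking the ratio within chromosomes moved the single-library values to 0.959 and 1.20, so their place on either side of 1 in replicate 1 depended on how chromosomes were weighted. Chromosome 16 stood apart among chromosomes with few islands: 26 of its 422 regions had their midpoint in islands of replicate 1, mostly in the 2 clustered islands named above, and 1 had it in islands of replicate 2.

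**Figure D5:**
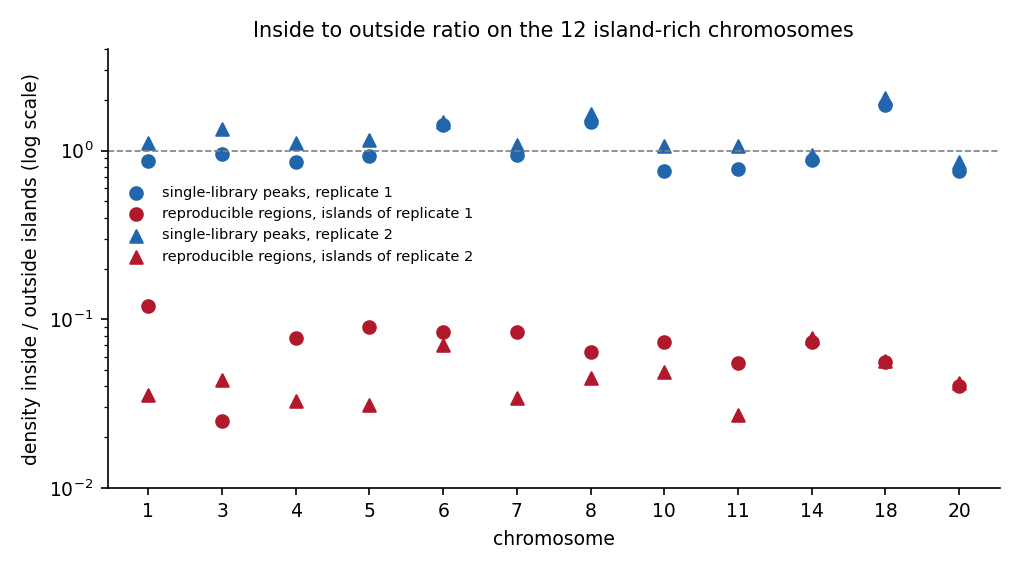
Ratio of H3K9ac density inside to outside H3K9me2 islands (log scale) on each of the 12 chromosomes with at least 5% island cover, for reproducible regions (red) and peaks of 1 library only (blue); circles are replicate 1 and triangles replicate 2, and the dashed line marks equal density. All red points lie between 0.0249 and 0.12, and the blue points lie between 0.754 and 2.05.

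Across all 23 chromosomes, the share covered by islands had little relation to the density of reproducible regions (Pearson's r = -0.060, Spearman's rho = 0.168). Its relation to the density of single-library peaks was positive and weak to moderate (r = 0.347 and 0.301, rho = 0.488 and 0.50 in replicates 1 and 2). Reproducible and single-library densities went together (r = 0.805 and 0.780, rho = 0.779 and 0.709). These values describe chromosomes of the same libraries, which share depth, base composition and gene content, and carry no test.

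Treated cells gave the one comparison with the rest of the series. The ratio over all H3K9ac peaks was 0.909 and 0.742 in untreated replicates 1 and 2 and 0.0739 and 0.371 in treated replicates 1 and 2, so both untreated values were higher. The log2 ratios differed by 2.31 (untreated minus treated), and a two-sided exact permutation test over 2 against 2 library pairs gave p = 0.3333, the smallest p this design allows. Single-library peaks made up 83.2% and 58.8% of untreated and 58.5% and 40.0% of treated peaks, and their own ratios were 1.09 and 1.29 untreated against 0.121 and 0.954 treated. Reproducible sets overlapped islands at 0.927% and 0.446% untreated and at 0.171% (36 of 21096) and 0.109% (23 of 21096) treated. The treated replicates differed widely from each other, and the share of single-library peaks differed between replicates as well as between conditions. The part of either in the difference was not tested.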

How the data were processed

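The deposited data used here were interval lists on hg19: per library for both marks, plus a reproducible H3K9ac set per condition that the authors made from both libraries. Per the submitters' processing notes, SICER, MACS2, Picard, BWA 0.7.5 and Trimmomatic 0.32 were used. Which tool made which list, its settings and the read depth were not given in the sources used here. For library peaks and islands the deposited score is the authors' own and of no stated kind. The score of the reproducible set, deposited by the authors, was read as −log10 of an irreproducible discovery rate because its lowest value, 1.301, is that of a rate of 0.05. The other deposited columns are positions. The 4 inputs were not analysed here.

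Intervals were compared in Python 3.11.15 with numpy 2.4.6, pandas 2.3.3 and SciPy 1.17.1 on 23 chromosomes, which left out 26 reproducible regions. Island ends were read as the last base. Overlap meant at least 1 bp, distance ran between nearest ends, and densities counted midpoints. The interval routines were tested on simulated data. The members, lists and tests were chosen with earlier results of these data known. Loci named are the 10 reproducible regions deepest inside common islands, the highest-scoring ones in gaps of at most 20 kb in both lists and the 10 widest common islands; the 6 islands with 3 or more regions and single chromosomes were picked after their values were seen. Gene lists and marker genes had been planned, but an hg19 annotation was not used here, so no gene is named.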

Additional observations from a re-analysis of the deposited data

How the results depend on the processing

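Of 56 alternative values, 41 stayed within 1 SD of the value reported or on the same side of the test, 15 moved further and 0 changed direction. Some of the 41 could not have come out otherwise. Leaving out 1 replicate of a pair always leaves a value within 1 SD of the pair's mean. For untreated against treated, the smallest p the exact permutation test allows is 0.3333 and the alternatives allow none lower, so no value could change side. The count of 41 is therefore not a measure of stability. The share of reproducible regions in islands, 0.686%, was 0.328% with islands common to both libraries, 1.05% with islands of either and 0.293% for the higher-scoring 50% of the regions. The median distance, 847 kb, was 1724 kb from common islands, 639 kb from islands of either library, 1702 kb from the higher-scoring 50% of islands and 525 kb on the chromosomes with at least 5% island cover. The ratio inside to outside over all peaks, 0.825, was 0.526 in covered bases, 0.662 with equal numbers of top-scoring peaks and 0.0682 for peaks met in the other library. The ratio at the edge, 0.779, was 0.90 against zones over 1 Mb away, 0.499 in covered bases, 0.698 in bins of 100 kb that hold an interval and 0.161 for peaks met in the other library. The ratio for reproducible regions, 0.0752, was 0.0301 in covered bases. The cause of these moves was not tested, except that stricter islands are fewer and lie farther apart by construction.

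Leaving out 1 replicate gave 0.446% to 0.927% for the share, 828 to 866 kb for the distance, 0.742 to 0.909 for the ratio over all peaks, 0.763 to 0.796 at the edge, 0.0467 to 0.104 for reproducible regions and 1.09 to 1.29 for single-library peaks. For untreated against treated, a replicate block left the log2 difference at 2.31, with p = 0.5 in an exact permutation by sign flips, the smallest that 2 pairs allow; leaving out 1 replicate gave 1.15 to 3.47. The comparison by support was chosen after seeing the data, as were the values without the 6 islands. Depth is unknown, so a peak of 1 library cannot be told apart from one missed in the other.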
